A study of Mus musculus with 162 samples.

Results

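Brown and beige adipocytes oxidise fatty acids to produce heat, and they carry a set of genes that other adipocytes express weakly or not at all. Brown adipocytes fill the interscapular depot, beige adipocytes are scattered through subcutaneous white fat, and perigonadal white fat of the mouse holds few of them. The levels of 10 such genes were followed through a fast. They were picked by gene symbol out of the 53686 genes of the count table. Ucp1 encodes the uncoupling protein that returns protons across the inner mitochondrial membrane as heat. Cidea encodes a lipid droplet protein, and Elovl3 a fatty acid elongase. Dio2 encodes the deiodinase that makes active thyroid hormone inside the cell. Ppargc1a is a coactivator of mitochondrial biogenesis, and Prdm16 a transcription regulator of brown fat identity. Cox7a1 and Cox8b encode tissue-restricted subunits of cytochrome c oxidase. Otop1 encodes a proton channel and Nrg4 a secreted ligand of ErbB receptors.

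Adult male C57BL/6J mice were either fed ad libitum (0 h) or fasted for 2, 8, 12, 18 or 22 h, with 3 mice at each of the 6 times. The fasts started at different clock times, so that every mouse was sampled at the same time of day. All 18 mice gave the same 9 organs: interscapular brown fat (iBAT), posterior subcutaneous white fat (psWAT), perigonadal white fat (pgWAT), liver, stomach, olfactory bulb, cerebellum, brainstem and the remaining brain. Strand-specific sequencing of polyadenylated RNA gave 162 libraries, of which 5 had been left out by the study and the others were retained. The fat depots held 54 libraries, with 52 retained: iBAT 22 h replicate 1 and psWAT 22 h replicate 2 were left out. Total counts per retained library ran from 3156101 to 27801717 in iBAT (17 libraries), from 4099281 to 9802381 in psWAT (17 libraries) and from 5784709 to 19829510 in pgWAT (18 libraries). Levels are in CPM (counts scaled to the total of each library). A count of 0 allows up to 3 counts, which was 0.108 to 0.951 CPM in the fat libraries; such floors and all intervals given cover counting error only. Where values of a single time are listed, they stand in the order of replicates 1, 2 and 3.

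Marker genes of position separated the depots, with exceptions. Hoxc10, a gene of posterior body position, averaged 12.7 CPM in psWAT, 0.290 CPM in pgWAT and 0 in iBAT. Of the same list, Hoxc9 averaged 5.45 and 4.28 CPM in psWAT and pgWAT, and Hoxc8 was higher in pgWAT, at 105.9 CPM, than in psWAT, at 33.1 CPM. Upk3b, Wt1 and Tcf21, genes of visceral fat, averaged 103.8, 12.8 and 8.67 CPM in pgWAT and below 0.1 CPM in the other depots. Zic1, a gene of dorsal mesoderm, averaged 8.85 CPM in iBAT and 44 CPM in psWAT, where 1 library carried most of it and the median was 0.213 CPM. Ebf2 averaged 55.6, 14.1 and 34.7 CPM in iBAT, psWAT and pgWAT, and Lhx8 3.15, 2.65 and 0 CPM. The psWAT libraries differed widely in what tissue they held. The summed level of 8 adipocyte markers ran from 677.5 to 39741 CPM, led by Fabp4. Cd3d, a T cell gene, ran from 32.1 to 258.7 CPM in psWAT, against means of 0.550 CPM in iBAT and 1.23 CPM in pgWAT. Skeletal muscle markers, led by Acta1, were highest in 2 h replicate 2 at 43557 CPM. psWAT 12 h replicate 3 carried cerebellar neuron markers at a sum of 4606 CPM, against at most 47.1 CPM in the other retained psWAT libraries, with Zic1 at 729.4 CPM. In pgWAT, epididymis and testis markers, led by Crisp1, reached 19187 CPM in 18 h replicate 3 and 24297 CPM in 22 h replicate 2, and the latter had the lowest adipocyte sum of that depot, 6802 CPM. The share of these admixed tissues in any difference was not tested. In bulk RNA, fewer cells of a type and less RNA per cell cannot be told apart.

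The iBAT libraries of 22 h stood apart from all other iBAT libraries. Counts from mitochondrially encoded genes made up 5.47% and 11.8% of the total in replicates 2 and 3, against 12.9% to 36.2% at the earlier times. Genes with under 1 kb of exon sequence took 14.7% and 11% of the nuclear counts, against 4.49% to 7.74%. The adipocyte sums were 31666 and 27691 CPM, above the highest earlier value of 20818 CPM. Of these markers, Retn stood at 236.7 and 201.5 CPM (at most 151.4 CPM earlier) and Cfd at 6269 and 3789 CPM (at most 2649 CPM). Adipoq, Fabp4 and Cidec also lay above their earlier values. Plin1 at 680.9 and 801.1 CPM, Lep at 23.4 and 69.5 CPM and Pck1 at 2091 and 2933 CPM lay within their earlier ranges. Zic1 stood at 0 and 3.06 CPM (at least 6.10 CPM earlier). The 22 h libraries were sequenced in lanes that held no other iBAT time, so lane, RNA state, the tissue taken and the length of the fast cannot be told apart there.

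Ucp1, Cidea, Otop1, Cox8b and Cox7a1 were far higher in iBAT than in any other organ, and the other 5 genes were not. Over the 17 iBAT libraries, Ucp1 averaged 4212 ± 1439 CPM (SD), with the lowest library at 2329.8 and the highest at 7549 CPM. In psWAT it averaged 75.9 ± 184.04 CPM (n = 17) around a median of 2.13 CPM, since a few libraries held nearly all of it. Every other organ averaged below 1 CPM, from 0.0318 CPM in brainstem to 0.415 CPM in brain. Cidea averaged 2282 ± 764.6 CPM in iBAT and 138.1 ± 216.9 CPM in psWAT. Its means elsewhere ran from 0.280 CPM in liver to 8.05 CPM in cerebellum, with pgWAT at 4.51 ± 1.45 CPM (n = 18). Otop1 averaged 183.6 ± 41.8 CPM in iBAT and 14.9 ± 20.6 CPM in psWAT, and was below 1 CPM in the mean of every other organ. Cox8b averaged 1227 ± 1179 CPM in iBAT, 94.7 CPM in psWAT and 11.9 CPM in pgWAT. Cox7a1 averaged 624.1 ± 483.7 CPM in iBAT, with stomach next at 57.4 ± 26.6 CPM (n = 17) and psWAT at 30.9 CPM.

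Other members were shared with organs that hold no brown adipocytes. Elovl3 was as high in liver, 97.6 ± 55.9 CPM (n = 18), as in iBAT, 81.4 ± 51.2 CPM (n = 17), and these means did not differ beyond their spread; psWAT followed at 5.82 CPM and all others stayed at or below 0.143 CPM. Dio2 was highest in iBAT at 156.3 ± 120.02 CPM, and olfactory bulb at 102.9 ± 17.9 CPM and brainstem at 65.1 ± 8.49 CPM lay within that spread. Ppargc1a was higher in olfactory bulb, 94.2 ± 12.5 CPM, brainstem, 73.2 ± 5.40 CPM, and cerebellum, 52.8 ± 3.91 CPM, than in iBAT, 37.7 ± 13.7 CPM. Prdm16 was highest in stomach at 28.1 ± 7.22 CPM, followed by iBAT at 18.7 ± 7.61 CPM. Nrg4 averaged 186.3 ± 31.9 CPM in iBAT and 171.3 ± 45.2 CPM in pgWAT; psWAT averaged 62.9 ± 58.7 CPM and liver 17.6 CPM. Divided by exon length (RPKM, the CPM per kilobase), Cox8b had the highest mean of the members in iBAT at 3407 RPKM, followed by Ucp1 at 2575, Cidea at 2047 and Cox7a1 at 1167 RPKM. Otop1, Elovl3, Nrg4 and Dio2 lay between 26.9 and 53.3 RPKM, Ppargc1a at 5.72 and Prdm16 at 2.00 RPKM. Cox8b averaged 4012 CPM at 22 h and at most 1146 CPM at the other times. Its lead over Ucp1 in the mean rests on the 22 h libraries. The medians of Cox8b and Ucp1 were close, at 2485 and 2421 RPKM.

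**Figure D1:**
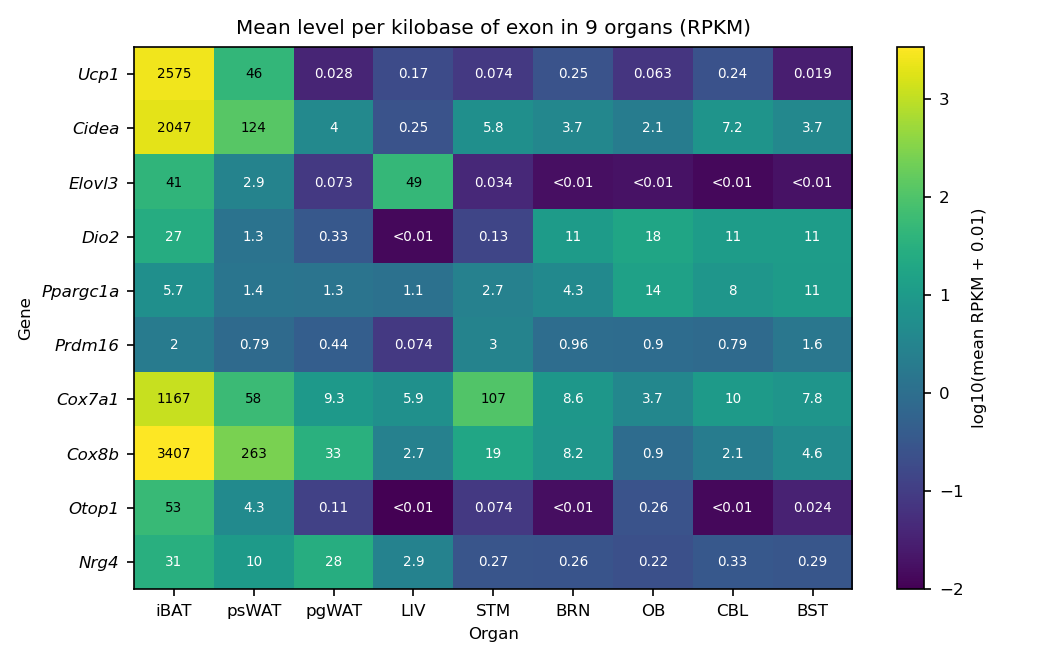
Level of each of the 10 genes in 9 organs, from the retained libraries, on a log scale. Ucp1 averaged 4212 CPM in iBAT and 0.0456 CPM in pgWAT, while Elovl3 averaged 97.6 CPM in liver.

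The depots were compared with each fasting time weighted equally. A gene was called at an adjusted p under 0.05 with an absolute log2 fold change over 1. All 10 members were higher in iBAT than in psWAT, against 49.2% of the 18864 genes tested called in either direction. The median log2 fold change of the members was 5.29, against -0.27 for all genes. Ucp1 led with a log2 fold change of 9.30 (SE 0.73, adjusted p = 1.21e-13), followed by Elovl3 at 6.99 and Cidea at 5.73. The log2 ratios of mean CPM, which the few high psWAT libraries weigh down, were 5.80, 3.81 and 4.05. On that scale Dio2 at 4.43 and Cox7a1 at 4.34 came before Cidea and Elovl3, and Nrg4 at 1.57 and Prdm16 at 1.34 stayed last. Dio2, Cox7a1, Otop1 and Cox8b lay between 4.75 and 5.62 in the fit. The smallest fitted differences were those of Ppargc1a at 2.91, Nrg4 at 2.82 and Prdm16 at 2.11. For Ucp1, Cidea, Cox7a1, Cox8b and Otop1, every iBAT library lay above every psWAT library, as for 2.24% of all genes tested. For Elovl3, 12 of 17 iBAT libraries did, since psWAT 0 h replicate 1 at 52.5 CPM overlapped the lowest iBAT libraries.

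Against pgWAT, 9 of 10 members were higher in iBAT, where 37.5% of 18864 genes were called. Of these members, Ucp1, Elovl3 and Otop1 had too few counts within pgWAT and passed the filter only through the other depots. Ucp1 was near absent from pgWAT: 9 counts in 18 libraries, a pooled level of 0.0534 CPM (exact Poisson 95% interval 0.0244 to 0.101), with a count in 4 libraries only. The log2 ratio of mean CPM, iBAT over pgWAT, was 16.49. Elovl3 gave 20 pooled counts in pgWAT, 0.119 CPM (0.0725 to 0.183), and a log2 ratio of 9.15, beside 8.98 for Cidea and 8.98 for Otop1. In the fit, Ucp1 and Elovl3 had log2 fold changes of 17.04 and 10.34, Cidea of 9.65 (SE 0.49) and Otop1 of 9.56 (SE 0.49), followed by Cox7a1 at 7.55, Dio2 at 7.52 and Cox8b at 7.15. No SE was given for Ucp1 and Elovl3. Their fitted size is not determined, since pgWAT held no counts of Ucp1 at 0 and 12 h and of Elovl3 at 12 h. Ppargc1a at 2.80 and Prdm16 at 2.68 differed least among those called. Nrg4 was not called, with a log2 fold change of 0.78 (SE 0.27, adjusted p = 0.0112), below the fold threshold; the log2 ratio of mean CPM was 0.12, so the size depends on how the libraries are scaled and averaged. For 7 members, all but Ppargc1a, Prdm16 and Nrg4, every iBAT library lay above every pgWAT library, as for 2.60% of all genes tested. The median of the members was 7.53, and that of all genes -0.12.

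Between the white depots, 7 members were higher in psWAT, 1 was lower and 2 were not called, where 42.1% of 18864 genes were called. The 7 include Ucp1, Elovl3 and Otop1, which passed the filter only through iBAT and psWAT. The log2 ratio of mean CPM, psWAT over pgWAT, was 10.70 for Ucp1 and 5.34 for Elovl3, against fitted values of 7.74 and 3.35. The fitted size for Ucp1 and Elovl3 has no SE and is not determined, given the pgWAT times without counts. The psWAT means of these genes rest on a few libraries, with 0 h replicate 1 the highest, and the medians were 2.13 and 0.177 CPM. For Ucp1, 16 of 17 psWAT libraries lay above every pgWAT library, and for Elovl3 3 of 17 did. Otop1 had a log2 fold change of 4.35 (SE 0.48), Cidea of 3.92 (SE 0.39), and Cox8b, Cox7a1 and Dio2 lay between 1.89 and 2.40. Nrg4 was lower in psWAT, at -2.05 (SE 0.29, adjusted p = 5.93e-08). Prdm16 at 0.57 (adjusted p = 0.0091) stayed below the fold threshold and Ppargc1a at -0.11 (adjusted p = 0.707) did not pass. The median of the members was 2.29, against 0.06 for all genes. With the mouse of 22 h replicate 3 left out, 5 members were called in place of 8: Elovl3 (adjusted p = 0.0779), Dio2 (adjusted p = 0.44) and Otop1 lost their calls. Elovl3 also lost its call without 8 h replicate 3 (adjusted p = 0.0523), 2 h replicate 3 or 12 h replicate 1, and Dio2 without 12 h replicate 3 (adjusted p = 0.0686). No p is given where all psWAT libraries left at a time held 0 counts of the gene. Without 22 h and 2 mixed libraries, 6 members were called, with Elovl3 (adjusted p = 0.0555) and Dio2 (adjusted p = 0.511) not. RNA of the white depots was extracted with another reagent than that of iBAT, so depot and extraction cannot be told apart in the comparisons with iBAT. psWAT and pgWAT shared the extraction.

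**Figure D2:**
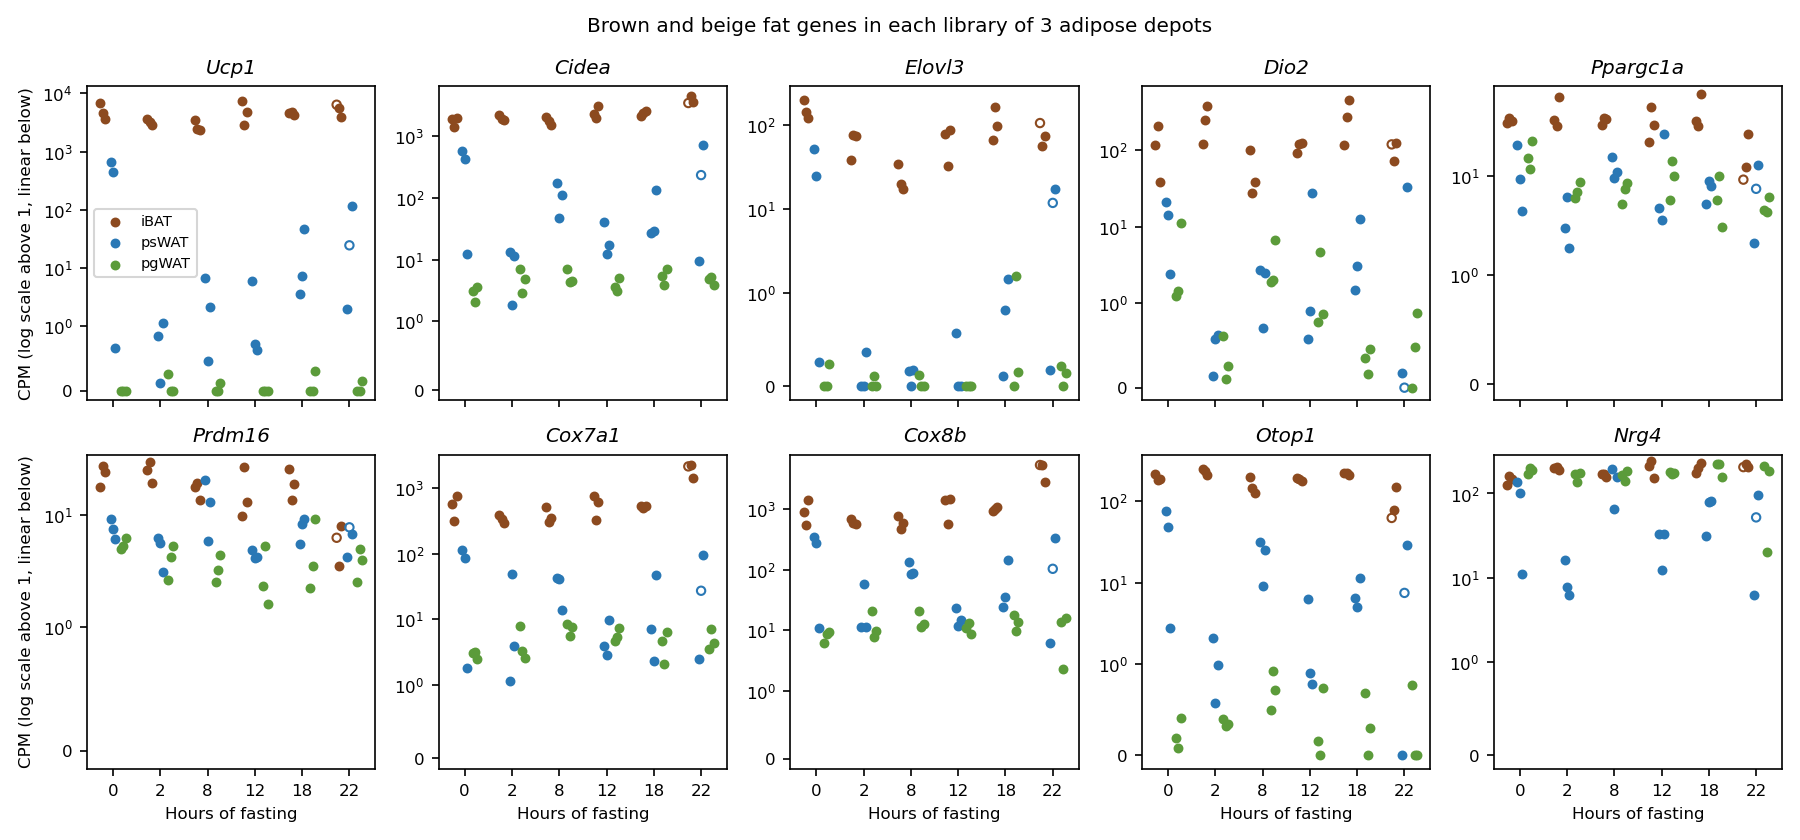
Level of each of the 10 genes in the 3 fat depots by hours of fasting, in CPM on a log axis. In psWAT, Ucp1 stood at 656.9 and 438.9 CPM in 2 fed libraries and at 0.659 CPM in the third.

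Within iBAT, the fasted mice were compared with the fed ones in 3 tests that share the same 0 h libraries: any of the 5 fasting times, the mean of 8 and 12 h (daytime fast), and the mean of 18 and 22 h (late fast). Across the times, 6 of 10 members changed (Cox8b, Cox7a1, Elovl3, Cidea, Prdm16 and Otop1), where 29% of 14529 genes were called. The adjusted p ran from 0.000387 for Cox8b to 0.0441 for Otop1. Ucp1 (adjusted p = 0.117), Dio2, Ppargc1a and Nrg4 were not called. Most of these calls rested on the 22 h libraries. With all of 22 h left out, no member was called and 65 genes were, with Elovl3 at an adjusted p of 0.059; over all alternatives it ran from 1.87e-08 to 0.059. Without 22 h replicate 2 alone, 3 members and 876 genes were called, and Cidea and Prdm16 lost their calls at adjusted p values of 0.112 and 0.157. Elovl3, Cox7a1 and Cox8b kept theirs whichever library was left out.

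Elovl3 was the member called lower in the daytime fast of brown fat. Its fed libraries held 198.4, 142.8 and 121.97 CPM, those of 2 h 39, 76.1 and 73.6 CPM, and those of 8 h 34.7, 20.2 and 17.4 CPM. At 12 h the values were 77.7, 32.3 and 87.9 CPM, at 18 h 66.1, 167.04 and 97.5 CPM and at 22 h 56.1 and 74.8 CPM. Of the 14 fasted libraries, 13 lay below all 3 fed ones, and 18 h replicate 2 was the exception. In the daytime fast the log2 fold change was -2.12 (SE 0.34, adjusted p = 0.00634), the only member called, where 0.551% of 14529 genes were called (15 higher and 65 lower). The call held in every alternative fit, with an adjusted p from 4.71e-07 to 0.0299, and in every fit without 1 library, with a log2 fold change from -2.32 to -1.83. The number of genes called fell to 36 without 0 h replicate 3 and to 43 without 8 h replicate 1 or 8 h replicate 2. In the late fast Elovl3 had a log2 fold change of -1.03 (SE 0.36, adjusted p = 0.0557) and was not called.

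Ucp1 stayed high in brown fat throughout. The fed libraries held 6824, 4619 and 3625 CPM, those of 2 h 3678, 3234 and 2875 CPM and those of 8 h 3549, 2461 and 2329.8 CPM. At 12 h the values were 7549, 2878 and 4702 CPM, at 18 h 4689, 4885 and 4189 CPM and at 22 h 5557 and 3960 CPM. The 3 libraries of 8 h lay below every fed library, and 12 h replicate 1 was above them all; 6 of 14 fasted libraries lay below all fed ones. The log2 fold change was -0.59 (SE 0.27, adjusted p = 0.523) in the daytime fast and -0.27 (SE 0.28, adjusted p = 0.503) in the late fast, neither called. In the daytime fast the median log2 fold change of the 10 members was -0.34, against -0.01 over all genes.

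The cytochrome c oxidase isoforms moved together, and mainly at 22 h. Cox8b stood at 894.5, 545.4 and 1398 CPM in the fed libraries, at 759.8, 471.3 and 585.5 CPM at 8 h and at 5239 and 2785 CPM at 22 h. Cox7a1 stood at 563.8, 316.8 and 757.3 CPM in the fed libraries, at 501.1, 302.9 and 350.1 CPM at 8 h and at 2182 and 1402 CPM at 22 h. Both retained 22 h libraries lay above every iBAT library of an earlier time for either gene. How many of all genes did so was not counted, and across the times 4210 of 14529 genes were called. Skeletal muscle sums were 103.2, 511.8 and 4289 CPM in the fed libraries, 3908 and 2704 CPM at 22 h and highest in 12 h replicate 3, at 14325 CPM; over the 17 iBAT libraries they had a correlation of 0.24 with Cox8b and 0.19 with Cox7a1. Cidea followed these genes, with 1912, 1408 and 1949.5 CPM at 0 h, 2289.7, 1928 and 3108 CPM at 12 h and 4364 and 3613 CPM at 22 h. In the late fast, Cox8b had a log2 fold change of 0.95 (SE 0.31, adjusted p = 0.0381) and Cidea of 0.66 (SE 0.18, adjusted p = 0.0203), both under the fold threshold. Cox7a1 did not pass (0.70, adjusted p = 0.0815). Each of these genes has a short transcript, with 0.360 kb, 0.535 kb and 1.11 kb of exon. With each library's trend on exon length used as an offset, the late log2 fold changes were 0.37 for Cox8b, 0.18 for Cox7a1 and 0.23 for Cidea, and in the test of any time Cidea lost its call (adjusted p = 0.718; from 2.62e-06 to 0.718 over all alternatives) while Cox8b and Cox7a1 kept theirs.

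Prdm16 was lower in the late fast. Its fed libraries held 18.1, 27.9 and 24.3 CPM, those of 18 h 25.9, 13.7 and 19.3 CPM and those of 22 h 3.49 and 8.03 CPM. The retained 22 h libraries lay below every iBAT library of an earlier time, while those of 18 h overlapped the fed ones. How many of all genes lay below in this way was not counted. The log2 fold change was -1.23 (SE 0.32, adjusted p = 0.0139), the only member called in the late fast, where 9.6% of 14529 genes were called (366 higher and 1029 lower). Prdm16 has the longest transcript of the members, 9.32 kb. Its call was lost with the length offset (-0.76, adjusted p = 0.0518), with 22 h left out (-0.41, adjusted p = 0.721), with a term for lane 8, which leaves the lanes of 22 h unadjusted (adjusted p = 0.0589), and without 0 h replicate 2 (adjusted p = 0.0856) or 22 h replicate 2 (adjusted p = 0.0572). Without those libraries 470 and 888 genes were called, and without 22 h replicate 3, 2720 genes and 2 members, Prdm16 and Cox8b. Over the alternatives other than leaving out 1 library, the adjusted p of Prdm16 ran from 0.00301 to 0.721. In the fits that each left out 1 library its log2 fold change stayed between -1.62 and -1.04, also where the call was lost. Elovl3 was called in the late fast with DESeq2 (-1.01, adjusted p = 0.026) and with the length offset (-1.32, adjusted p = 0.0238), and Cox8b, higher, with all libraries (1.02, adjusted p = 0.0261) and with a replicate block (1.06, adjusted p = 0.0242). Elovl3 was also called without 8 h replicate 1, 12 h replicate 2, 12 h replicate 3 or 18 h replicate 2 (adjusted p from 0.0291 to 0.0498). Without 0 h replicate 3, Elovl3, Prdm16 and Cox8b were called.

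Across genes, the late contrast in iBAT followed exon length. The median log2 fold change was 0.55 for genes under 1 kb and -0.58 for genes over 8 kb, with a Spearman rho of -0.48 over 14227 genes; genes are not independent replicates. In the daytime fast rho was -0.11. Otop1 was lowest at 22 h: 211.1, 179.2 and 183.2 CPM in the fed libraries, 194.3, 143.97 and 123.03 CPM at 8 h and 76.4 and 146.4 CPM at 22 h. Of its 14 fasted libraries, 5 lay below and 4 above all fed ones. Otop1 averaged 226.2 and 213.3 CPM at 2 and 18 h, above the fed mean of 191.1 CPM. It was called across the times (adjusted p = 0.0441), and that call was lost with the same term for lane 8 (adjusted p = 0.0645) and in 11 of 17 fits that each left out 1 library, with an adjusted p of up to 0.2. Over the other alternatives its adjusted p ran from 0.00458 to 0.481. Dio2 varied widely between mice of a time and between times, and was not called across the times (adjusted p = 0.128). Its fed libraries held 115.8, 207.6 and 38 CPM, those of 2 h 119.7, 250.8 and 384.9 CPM, those of 8 h 99.8, 27.6 and 38.2 CPM, those of 12 h 92.5, 120.2 and 125.7 CPM, those of 18 h 118.3, 273.5 and 450.04 CPM and those of 22 h 72.2 and 122.9 CPM, and the fasted values lay on either side of the fed range. Ppargc1a stood at 34.6, 39.6 and 36.3 CPM in the fed libraries and at 12.4 and 26.9 CPM at 22 h. Its means at 2 and 18 h, 44.7 and 46.2 CPM, lay above the fed mean of 36.8 CPM. Of its 14 fasted libraries, 7 lay below and 3 above all fed ones. Nrg4 ranged from 126.8 to 240.97 CPM with a median of 188.4 CPM, and 12 of 14 fasted libraries lay above all 3 fed ones.

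**Figure D3:**
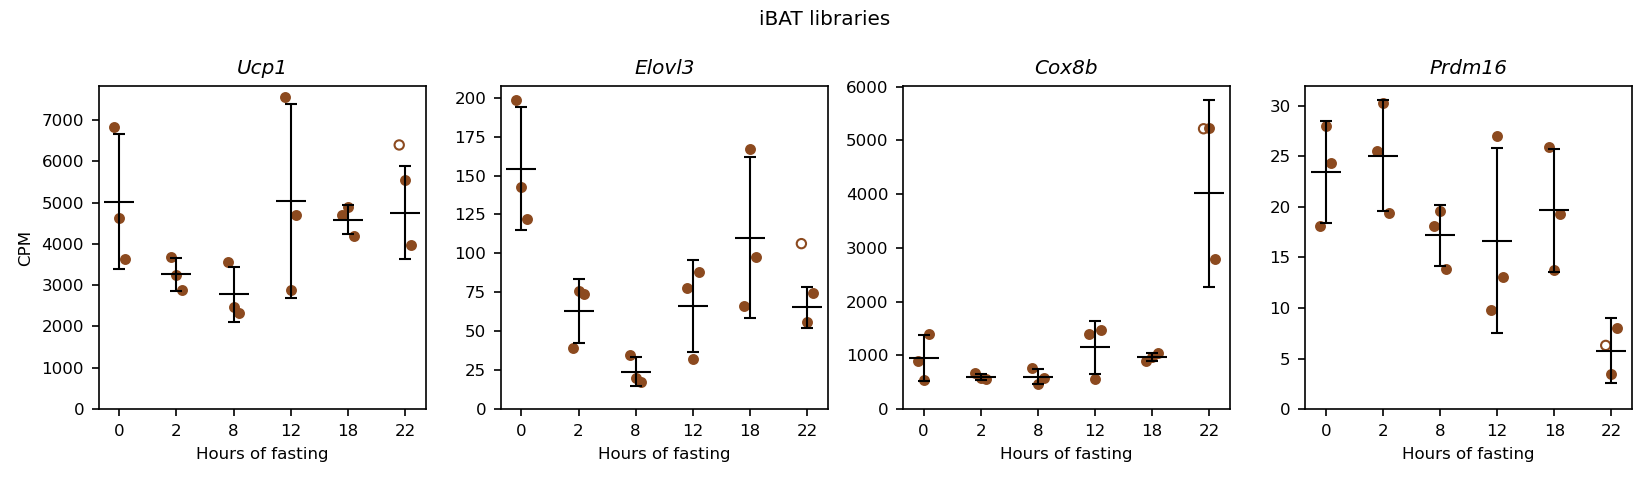
Levels of Ucp1, Elovl3, Cox8b and Prdm16 in iBAT by hours of fasting, in CPM, with each retained library as a point. Elovl3 stood at 198.4, 142.8 and 121.97 CPM in the fed libraries and at 34.7, 20.2 and 17.4 CPM at 8 h.

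In psWAT, transcripts of Ucp1, Elovl3, Cidea and Otop1 were abundant in some mice and low or absent in others. Prdm16 ran from 3.11 to 20.9 CPM, and Nrg4 and Cox8b held at least 6.19 CPM in every retained psWAT library. Ucp1 stood at 656.9, 438.9 and 0.659 CPM in the fed libraries, at 0.849, 0.115 and 1.12 CPM at 2 h and at 6.79, 0.466 and 2.13 CPM at 8 h. At 12 h the values were 5.87, 0.728 and 0.629 CPM, at 18 h 3.62, 7.24 and 46.3 CPM, and at 22 h 1.95 and 115.1 CPM in replicates 1 and 3. Fed replicates 1 and 2 were the highest of the depot, followed by 22 h replicate 3 and 18 h replicate 3, and the third fed mouse lay among the lowest fasted ones. Elovl3 was highest in the same 4 libraries, and 9 of 14 fasted libraries lay below all fed ones: 52.5, 24.8 and 0.263 CPM at 0 h, at most 0.572 CPM at 2, 8 and 12 h, 0.106, 0.816 and 1.47 CPM at 18 h, and 0.177 and 17.6 CPM at 22 h. Cidea stood at 572.8, 426.8 and 12.4 CPM at 0 h and at 174.6, 47.6 and 109.5 CPM at 8 h, and its highest library was 22 h replicate 3 at 706.5 CPM. Otop1 stood at 74.3, 48.1 and 2.77 CPM at 0 h and at 0 and 28.8 CPM at 22 h.

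No member was called at any contrast in psWAT, where 0%, 0% and 0% of 16721 genes were called by edgeR across the times, in the daytime fast and in the late fast. At an unadjusted p under 0.05, 6, 5 and 2 members and 3195, 451 and 867 genes passed. The DESeq2 fit tested 28585 genes across the times, so tool and gene filter changed together. DESeq2 called 6 members and 1884 genes across the times (Ucp1, Cidea, Elovl3, Prdm16, Otop1 and Nrg4), 2 members and 3 genes in the daytime fast (Ucp1 and Elovl3), and no member and 1 gene in the late fast. With the left-out 22 h replicate 2 added, edgeR called Ucp1 and Elovl3 across the times among 373 genes. Without 0 h replicate 3 or 18 h replicate 1 it called 6 and 4 genes, none a member. The fitted log2 fold change in the daytime fast was -7.45 (SE 1.57, adjusted p = 0.966) for Elovl3 and -7.25 (SE 1.57, adjusted p = 0.966) for Ucp1. The median over the 10 members was -2.55, against -0.02 over all genes; in the late fast these were -1.17 and -0.01.

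Fat-rich psWAT libraries could hold little Ucp1. The adipocyte sums were 28686, 23814 and 2265 CPM in the fed libraries and 39741, 15152 and 28435 CPM at 8 h, with 8 h replicate 1 the richest in fat of the depot. Per 100 counts of Adipoq, a gene of all adipocytes, Ucp1 gave 32.1, 30.1 and 0.480 counts at 0 h and 0.242, 0.0496 and 0.0946 at 8 h. At 18 h it gave 0.800, 0.695 and 3.87 and at 22 h 5.34 and 13.6 in replicates 1 and 3. Cidea gave 28, 29.2 and 9.03 at 0 h, 6.23, 5.06 and 4.87 at 8 h and 25.7 and 83.4 at 22 h on the same scale. Nrg4 varied less on this scale: 6.73, 6.92 and 7.97 at 0 h, 10.3, 12.4 and 6.97 at 2 h, 6.99, 6.87 and 7.05 at 8 h, 11, 13.2 and 9.43 at 12 h, 6.92, 7.50 and 6.74 at 18 h and 17 and 11.3 at 22 h, with a correlation of 0.99 with the adipocyte sum over the 17 psWAT libraries. The same correlation was 0.63 for Ucp1 and 0.51 for Elovl3. The Adipoq counts behind these ratios ran from 206 to 16502 per library. Some single values stood out in libraries with markers of other tissue, and their source was not tested. psWAT 2 h replicate 2, with the highest muscle sum, held Cox7a1 at 49.2 and Cox8b at 58.2 CPM, while 8 h replicate 2 and 18 h replicate 3, with muscle sums of 31084 and 29448 CPM, held Cox7a1 at 41 and 46.6 CPM and Cox8b at 86 and 144.2 CPM. psWAT 12 h replicate 3, with its cerebellar markers, held Dio2 at 27.8 and Ppargc1a at 27 CPM.

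**Figure D4:**
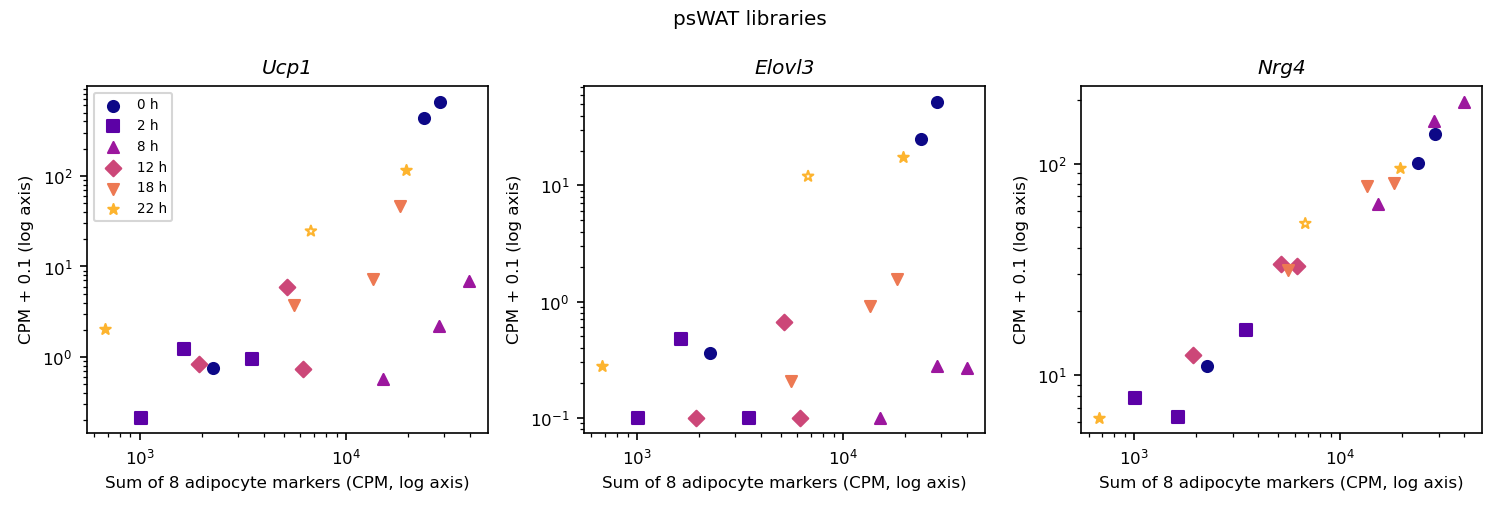
Ucp1, Elovl3 and Nrg4 in psWAT libraries against the summed level of adipocyte markers, both in CPM on log axes. At 8 h, adipocyte sums of 39741, 15152 and 28435 CPM went with Ucp1 at 6.79, 0.466 and 2.13 CPM.

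In pgWAT, 7 of 10 members had enough counts to be tested, and Ucp1, Elovl3 and Otop1 did not. No member was called, where 0%, 0% and 0.00609% of 16412 genes were called by edgeR across the times, in the daytime fast and in the late fast. At an unadjusted p under 0.05, 2, 2 and 3 members and 1693, 1289 and 3567 genes passed. The DESeq2 fit tested 29518 genes and all 10 members, so tool and gene filter changed together. It called 2, 0 and 2 members and 558, 4 and 585 genes, with Ppargc1a and Dio2 called in the late fast. The fed pgWAT libraries shared a lane that held none of 18 or 22 h, and those shared another. The late contrast thus also compares lanes. The edgeR fit, which called no member late, also called none with a term for lane. In it, genes at an unadjusted p under 0.05 went from 3567 to 1117. The DESeq2 calls were not refitted with lane. Only 12 h had libraries in both of those lanes, so lane and late fast cannot be told apart well. Ppargc1a stood at 15.5, 11.9 and 22.7 CPM in the fed libraries, at 6.00, 6.99 and 8.76 CPM at 2 h and at 5.25, 7.39 and 8.46 CPM at 8 h. At 12 h the values were 5.73, 14.3 and 10.2 CPM, at 18 h 5.70, 10.03 and 3.02 CPM and at 22 h 4.54, 4.36 and 6.19 CPM. Of the 15 fasted libraries, 14 lay below all 3 fed ones, the exception being 12 h replicate 2. The late log2 fold change by edgeR, fitted without a lane term, was -1.46 (SE 0.34, adjusted p = 0.0803). Dio2 held 1.24, 1.45 and 11.2 CPM at 0 h, 0.346, 0.159 and 0.453 CPM at 18 h and 0, 0.484 and 0.885 CPM at 22 h, and 11 of 15 fasted libraries lay below all fed ones. Its late log2 fold change was -3.54 (SE 0.92, adjusted p = 0.0902), with 0 h replicate 3 well above the other fed mice.

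Members with short transcripts lay mostly above the fed pgWAT libraries: 12 of 15 fasted libraries for Cidea, 13 for Cox7a1 and 12 for Cox8b, none of them called. Cox8b held 6.32, 8.71 and 9.45 CPM at 0 h and 13.5, 2.30 and 16.2 CPM at 22 h, and Cidea 3.06, 2.096 and 3.63 CPM and 4.87, 5.33 and 3.83 CPM. In this depot the log2 fold changes of all genes also followed exon length, with a Spearman rho of -0.44 in the daytime fast and -0.35 in the late fast over 16068 genes. With the length offset the late log2 fold change of Ppargc1a was -1.28 and that of Dio2 -3.37. Nrg4 held 227.2 CPM in its highest library and 173.2 CPM in the median one; the lowest was 22 h replicate 2 at 20.2 CPM, the library poorest in adipocyte markers. Without that library 179 genes were called in the late fast, and without 8 h replicate 1, 18 h replicate 1 or 22 h replicate 3, 5, 6 and 10, none a member. Across the times, between 1 and 11 genes were called without 8 h replicate 3, 12 h replicate 1 or any single library of 18 h.

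Whether the late fast acted differently on the depots was tested as the difference of their late log2 fold changes. No member was called for iBAT against psWAT (0.838% of 18864 genes called), iBAT against pgWAT (0.0212%) or psWAT against pgWAT (0%). At an unadjusted p under 0.05, 2, 1 and 2 members and 3411, 1708 and 1661 genes passed, and DESeq2 called from 76 to 839 genes per comparison with no member among them. The late change in iBAT exceeded that in psWAT by a log2 of 3.201 for Ucp1 (SE 1.40, adjusted p = 0.22) and 2.35 for Elovl3 (SE 1.10, adjusted p = 0.25). For Dio2 the difference between iBAT and pgWAT was 3.84 (SE 1.52, adjusted p = 0.441). These counts rested on single mice. Leaving out the mouse of 22 h replicate 3 left psWAT 22 h with replicate 1 alone, the library with the lowest adipocyte sum of the depot, 677.5 CPM. Without the mouse of 22 h replicate 3, which had the highest late Ucp1 in psWAT, 7 members were called for iBAT against psWAT among 2338 genes: Ucp1 (log2 difference 5.82, adjusted p = 0.019), Cidea, Elovl3, Cox7a1, Cox8b, Otop1 and Nrg4. For that comparison the gene count moved by over 1.5 times in 17 of 18 such fits, all but that without 12 h replicate 1, from 0 to 2338. For iBAT against pgWAT it ran from 0 to 523 genes, the most without 22 h replicate 3, and was 2 with the mouse as a block. For psWAT against pgWAT it ran from 0 to 3.

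Pairs of members were correlated in 1 direction in psWAT and in both directions in iBAT. Over the 17 psWAT libraries, all 45 pairs of members had a positive correlation of log2 CPM, with a median r of 0.69 and a range of 0.22 to 0.95; over all pairs of genes the median was 0.05. The closest pair was Ucp1 and Elovl3 at 0.95, and 0.86 without fed replicates 1 and 2. In iBAT the 45 pairs had a median r of 0.13, with 26 above 0, and over all genes 0.05. They ranged from -0.83 for Prdm16 and Cox8b to 0.99 for Cox7a1 and Cox8b. In pgWAT the 21 pairs of the 7 members tested had a median of 0.08. The libraries share fasting times and, in psWAT, the amount of fat, so these values describe the libraries. Among all genes, those nearest to Ucp1 in psWAT after Elovl3 were Slc27a2, a fatty acid transporter, at 0.92 (0.91 without those libraries), and Aspg, an asparaginase, at 0.90 (0.81). Slc25a20, the mitochondrial carnitine carrier, came at rank 8, at 0.88 (0.80). In iBAT the nearest was Cdkn1c, a cell cycle inhibitor, at 0.83 (0.84 without 0 h replicate 1 and 12 h replicate 1), with Mogat1, a triglyceride synthesis enzyme, at rank 5 with 0.78 (0.81), and no member was among the 8 nearest. Between iBAT and psWAT of the same mouse, r was 0.54 for Ucp1 and 0.56 for Elovl3 over 16 mice, which share fasting times; for the other 8 members it lay between -0.35 and 0.18.

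Relatives of the members were followed as well. Of 24 listed paralogs, 12 averaged above 10 CPM in at least 1 depot. The general isoforms were highest in iBAT among the depots, as were the tissue-restricted subunits. Cox8a averaged 1175 CPM in iBAT, 322.4 in psWAT and 629.6 in pgWAT, and Cox7a2 667.4, 160.2 and 244.6 CPM. Between the white depots, Cox8a and Cox7a2 had the higher mean in pgWAT, and Cox8b and Cox7a1 in psWAT. Cidec, a lipid droplet protein, was highest in pgWAT at 3493 CPM, where Cidea averaged 4.51 CPM. It averaged 1251 CPM in iBAT and 861.8 CPM in psWAT. Ucp2 was highest in psWAT at 394.8 CPM and Ucp3 in iBAT at 136.2 CPM, and Elovl6 averaged 726.6 CPM in iBAT. Ppargc1b, the closest relative of Ppargc1a, averaged 47.6, 6.32 and 3.15 CPM in iBAT, psWAT and pgWAT, and Pprc1 10.4, 57.6 and 17.8 CPM. In the same order, Mecom, the relative of Prdm16, averaged 10.5, 5.61 and 6.36 CPM and Cox7a2l 224.7, 261.8 and 170.5 CPM. Elovl5 and Elovl1 averaged 84.5, 109.9 and 83.2 CPM and 11, 44.9 and 48.5 CPM. Across the fasting times in iBAT, 8 of 13 tested paralogs changed, where 29% of all genes did, with Cox8a at an adjusted p of 0.000864 and Cox7a2l at 0.000864. Over all genes, 4210 were called in that test, and 65 with 22 h left out. Cox8a averaged 913.8 CPM at 0 h and 2545 CPM at 22 h, so the ubiquitous isoform was also highest in the 22 h libraries. Late in the fast 2 of 13 paralogs were lower and none higher, where 9.6% of all genes were called.

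Single genes of the pathways around the members differed between fed and fasted iBAT. The late and any-time counts depended on the 22 h libraries. Over all genes, calls fell from 1395 to 53 late and from 4210 to 65 across the times with 22 h left out. Of 15 lipid synthesis genes, 2 were lower in the daytime fast and 4 in the late fast, none higher, where 0.551% and 9.6% of all 14529 genes were called and 1029 were lower late. Acly, which makes cytosolic acetyl-CoA, averaged 2979 CPM at 0 h and 267.6 CPM at 22 h (late log2 fold change -2.90, SE 0.27, adjusted p = 2.76e-05), and Mlxipl, the carbohydrate response factor, fell by a log2 of 1.93 (adjusted p = 0.000301). Of 21 genes of fatty acid import and oxidation, 2 were lower in the daytime and 3 in the late fast (all genes called late, 9.6%), among them Acot11, a thioesterase of brown fat (-1.74, adjusted p = 0.000168), and Acsl5, an acyl-CoA synthetase (-1.01, adjusted p = 0.00163). Angptl4, a secreted inhibitor of lipoprotein lipase, rose in the daytime fast (1.62, adjusted p = 0.016) and the late fast (1.75, adjusted p = 0.0029). Mitochondrially encoded genes of the respiratory chain were lower late in 7 of 9 cases, with mt-Nd4 at -1.38 (adjusted p = 0.0021). Their sums were 320293, 352399 and 181541 CPM at 0 h, 235052, 236946 and 198404 CPM at 18 h and 46366 and 107479 CPM at 22 h. Within the late fast only the 22 h libraries, where lane and RNA state differ too, lay below all fed ones. At the earlier times 12 h replicate 3 did as well, at 122781 CPM. None of 16 nuclear genes of the chain was called late and 9 changed across the times. Cox4i1, a nuclear subunit, averaged 1279 CPM at 0 h and 5179 CPM at 22 h. Across the times 4 of 14 transcription regulators, 3 of 9 surface markers, 1 of 6 lipolysis genes and 1 of 8 genes of creatine and calcium cycling changed, where 29% of all genes did. With edgeR, no list had a called gene within psWAT or pgWAT.

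Genes of the respiratory chain differed between depots in the direction of the members. All 16 nuclear genes of the chain tested and all 9 mitochondrially encoded ones were higher in iBAT than in pgWAT, with median log2 fold changes of 2.63 and 2.78, against -0.12 for all genes. Over all 18864 genes, 37.5% were called against pgWAT (2579 higher in iBAT) and 49.2% against psWAT (3719 higher). Against psWAT, 15 of 16 and 9 of 9 were higher. Oxidation genes were higher in 20 of 21 cases against psWAT and in 18 against pgWAT, where 1 was lower. Lipolysis genes were higher than in psWAT in all 6 cases and differed from pgWAT in none. All 15 synthesis genes were higher than in psWAT, and 12 of 15 higher than in pgWAT. In psWAT, all 8 adipocyte markers were lower than in pgWAT, with a median of -2.55; their share in these differences was not tested.

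On the genome (GRCm38), Ucp1 lies at chr8:83290352-83298452 on the plus strand, Dio2 at chr12:90724552-90738438 on the minus strand, Elovl3 at chr19:46131897-46135694 on the plus strand, and Cox7a1 and Cox8b on chromosome 7 at chr7:30184144-30186078 (plus) and chr7:140898945-140900446 (minus). Ppargc1a lies at chr5:51454250-51567726 and Prdm16 at chr4:154316125-154636873, both on the minus strand, Otop1 at chr5:38275972-38304217 on the plus strand and Nrg4 at chr9:55220222-55326844 on the minus strand. All 10 are protein-coding. Exons of Nrg4 overlap those of Fbxo22 on the other strand, and exons of Elovl3, Dio2 and Prdm16 overlap those of Pitx3, Gm26512 and B230104I21Rik there. Whether the counts kept the strands apart was not tested.

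Promoter sequences around the annotated starts of Ucp1, Dio2, Cox8b and Cox7a1 are given from RefSeq on GRCm38.p6, each 300 bases long from 250 before the start to 50 after, written 5' to 3' along the gene's strand. Capitals mark exact matches, on either strand, to a short motif. The Ucp1 region is chr8:83290098-83290397 (plus), and its capitals mark the nuclear receptor site AGGTCA, which 16.3% of 32851 promoters carry. The Dio2 region is chr12:90738989-90739288 (minus), with the cAMP response element TGACGTCA, found in 1.79% of promoters, and the TATA box TATAAA; RefSeq places this start upstream of the Gencode one. The Cox8b region is chr7:140900397-140900696 (minus), with TATAAA, found in 13.6% of promoters. The Cox7a1 region, chr7:30183921-30184220 (plus), held none of the motifs searched. Such matches describe the sequence, and their use in fat was not tested.
Ucp1: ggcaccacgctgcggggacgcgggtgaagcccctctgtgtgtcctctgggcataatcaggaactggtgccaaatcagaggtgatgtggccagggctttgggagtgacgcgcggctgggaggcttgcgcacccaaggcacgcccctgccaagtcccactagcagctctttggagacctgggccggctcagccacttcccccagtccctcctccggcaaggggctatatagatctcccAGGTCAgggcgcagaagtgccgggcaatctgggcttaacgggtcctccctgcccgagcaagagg
Dio2: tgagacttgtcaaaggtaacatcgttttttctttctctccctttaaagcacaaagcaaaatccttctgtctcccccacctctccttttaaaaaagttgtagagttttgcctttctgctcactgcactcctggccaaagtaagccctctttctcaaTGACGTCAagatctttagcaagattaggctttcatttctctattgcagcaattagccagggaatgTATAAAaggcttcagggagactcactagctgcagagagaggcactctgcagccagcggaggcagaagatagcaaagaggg
Cox8b: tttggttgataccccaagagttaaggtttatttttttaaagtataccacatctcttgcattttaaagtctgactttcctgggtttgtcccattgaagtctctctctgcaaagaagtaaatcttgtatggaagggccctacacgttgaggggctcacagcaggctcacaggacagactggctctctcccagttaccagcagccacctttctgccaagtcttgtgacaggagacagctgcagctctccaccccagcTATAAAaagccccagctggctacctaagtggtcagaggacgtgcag
Cox7a1: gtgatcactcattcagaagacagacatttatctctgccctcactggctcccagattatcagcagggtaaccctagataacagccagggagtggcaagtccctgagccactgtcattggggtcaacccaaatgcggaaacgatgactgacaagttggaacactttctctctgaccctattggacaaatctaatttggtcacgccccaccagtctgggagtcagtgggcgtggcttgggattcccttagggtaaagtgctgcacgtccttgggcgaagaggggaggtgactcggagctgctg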

How the data were processed

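The authors aligned the reads to GRCm38.p5 with TopHat2 2.1.1 and counted them per gene with HTSeq 0.9.1, per their notes, and deposited raw read counts for 162 libraries. CPM values were computed here from those counts with all genes in the total. Tests used edgeR 4.0.16 (quasi-likelihood, TMM factors) and DESeq2 1.42.0 as the alternative, in R 4.3.3; tables and plots used Python 3.11.15, pandas 2.3.3 and matplotlib 3.10.9. Adjusted p values are Benjamini-Hochberg over all genes kept in a fit. Genes were kept at or above the CPM of 10 counts in the median library, in at least 3 libraries: 14529 genes in iBAT, 16721 in psWAT, 16412 in pgWAT and 18864 across depots. The DESeq2 fits tested more genes, with 26605 in iBAT and 33031 across depots, so a DESeq2 count differs in tool and in gene filter. A gene was called at an adjusted p under 0.05, with an absolute log2 fold change over 1 for contrasts. The scripts recovered known changes in simulated counts before they were run on the real ones.

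Members and gene lists were fixed before the data were examined, with earlier published results of these data known. From each list, the 3 tested genes with the smallest p across the times were available for naming. Other settings tried were DESeq2, other scaling factors, no filter, all libraries, lane and replicate terms, an exon length offset, and leaving out single libraries or the ones that stood apart. Gene coordinates and exon lengths came from Gencode M21 on GRCm38, a later release than the one counted; promoters came from RefSeq. The labels give an animal number, and libraries of a mouse were paired across depots: the mean correlation of residuals between depots of the same mouse was 0.00, 0.05 and 0.09 for iBAT with psWAT, iBAT with pgWAT and psWAT with pgWAT. Extraction reagent differed between iBAT and the white depots, and depth limits what can be seen below the stated floors. Results of some genes are not reported here.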

Additional observations from a re-analysis of the deposited data

Results flagged for a closer look

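iBAT 22 h replicate 1 was left out by the study and stands outside the tests. Its Cidea level was 3415 CPM, above every iBAT 0 h library (highest 1949.5 CPM). Cox7a1 stood at 2113 CPM there, against at most 757.3 CPM at 0 h. Cox8b stood at 5216 CPM, against at most 1398 CPM. Nrg4 stood at 205.9 CPM, against at most 160.4 CPM. Otop1, Prdm16 and Ppargc1a stood at 61.5, 6.30 and 9.26 CPM, below every 0 h library (lowest 179.2, 18.1 and 34.6 CPM), as was Elovl3 at 106.3 CPM (lowest 121.97 CPM). Ucp1 and Dio2 lay within the 0 h range. The retained 22 h libraries held Cidea at 4364 and 3613 CPM and Cox8b at 5239 and 2785 CPM.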

How the results depend on the processing

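Of the 35 calls of members, 288 alternative fits kept 273, lost 15 and reversed 0; 622 fits without 1 library or mouse kept 600 and lost 22. The fits with a length offset, without mitochondrially encoded genes or without the libraries that stood apart were chosen after seeing the data. The DESeq2 fits also tested more genes than the edgeR fits, so tool and gene filter changed together in every DESeq2 result. The cause of any shift was not tested.

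In iBAT across the times, 6 members and 4210 genes were called; leaving out 22 h gave 0 and 65, and the length offset 2692 genes. Single leave-outs gave 3 to 7 members and 876 to 5346 genes. For the daytime fast, 80 genes became 129 with DESeq2, 48 with all libraries and 36 to 98 in leave-outs. For the late fast, 1 member became 2 with DESeq2, 2 with all libraries, 2 with a replicate block, 0 with a term for lane 8, which leaves the lanes of 22 h unadjusted, and 0 without 22 h; 1395 genes became 615 with that term, 809 with the length offset and 53 without 22 h; leave-outs gave 0 to 3 members and 470 to 2720 genes.

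Within psWAT, where the edgeR counts were 0, DESeq2 called 6 members and 1884 genes across the times, 2 and 3 in the daytime fast and 1 gene late; all libraries gave 2 members and 373 genes, leave-outs 0 to 6 genes. Within pgWAT, DESeq2 called 2 members and 558 genes across the times, 4 genes by day, and 2 members and 585 genes late. No filter gave 1 gene across the times. Late, the 1 gene called became 21 with no filter, 0 with the lane, 172 without 18 h replicate 3 and 22 h replicate 2, and 1 to 179 in leave-outs; across the times leave-outs gave 0 to 11. Within depots, replicate numbers mark different mice: the mean residual correlation of libraries with the same number was 0.16 in iBAT, -0.08 in psWAT and 0.01 in pgWAT.

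Between depots, leave-outs gave 8432 to 9298 genes for iBAT against psWAT, 6779 to 7053 for iBAT against pgWAT, and 5 to 8 members and 6998 to 8315 genes for psWAT against pgWAT. For the late fast effect, iBAT against psWAT, 158 genes became 839 with DESeq2, 30 with no filter, 67 with the length offset and 0 without 22 h and the mixed libraries; leave-outs gave 0 to 7 members and 0 to 2338 genes. For iBAT against pgWAT, 4 genes became 1.5e2 (rounded to 2 digits) with DESeq2, 1 with no filter, 1 with all libraries, 2 with the mouse as a replicate block, 1 without mitochondrially encoded genes, 1 without 22 h and the mixed libraries and 0 to 523 in leave-outs. For psWAT against pgWAT, 0 became 76 with DESeq2, 5 with all libraries, 4 without 22 h and the mixed libraries and 0 to 3 in leave-outs.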

Other observations

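In liver, the mean of Elovl3 varied with fasting time; no test was run outside the fat depots. It averaged 97.8 ± 26.5 CPM (SD, n = 3) in the fed mice, 110.5 ± 63.5 CPM at 2 h and 190.02 ± 29.3 CPM at 8 h. The 12 h mean was 69.7 ± 16.5 CPM, that of 18 h 35.5 ± 5.39 CPM and that of 22 h 82.1 ± 18.4 CPM. The 8 h libraries, at 223.8, 171.9 and 174.4 CPM, overlapped those of 2 h, where replicate 3 held 183.8 CPM, and lay above those of 18 h, at 37.8, 29.3 and 39.3 CPM. In iBAT of the same mice 8 h was the lowest time. Liver Ppargc1a averaged 4.73 ± 1.09 CPM at 0 h, 8.04 ± 0.498 CPM at 2 h, 5.94 ± 1.47 CPM at 8 h, 6.57 ± 2.22 CPM at 12 h, 13.4 ± 4.50 CPM at 18 h and 6.18 ± 2.81 CPM at 22 h.

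Of 14 listed surface markers that have been used to tell beige from brown adipocytes, 13 were tested between depots. Against psWAT, 6 were higher and 3 lower in iBAT, where 49.2% of all genes were called, and against pgWAT 7 were higher and 4 lower, where 37.5% were. The ones named here were picked after seeing the data. P2rx5 averaged 107.6, 19 and 4.82 CPM in iBAT, psWAT and pgWAT and Kcnk3 291.3, 27.6 and 14.8 CPM; both were higher in iBAT than in psWAT, with log2 fold changes of 3.53 (SE 0.19) and 4.54 (SE 0.38). Tnfrsf9 averaged 0.295, 14.8 and 0.333 CPM and was lower in iBAT, at -4.96 (SE 0.41). Tnfrsf9 is also a gene of activated lymphocytes, and its source in psWAT was not tested; Cd3d, a T cell gene, averaged 0.550, 152.8 and 1.23 CPM in the same order. Tmem26 averaged 0.0882, 9.20 and 0.609 CPM and Tbx1 0.157, 4.72 and 0.813 CPM.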
